A study of Rattus norvegicus with 46 samples.

Results

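Aortic banding at 16 weeks is the third of 4 times at which left ventricles were sampled after a clip had been placed on the ascending aorta, a rat model in which the left ventricle pumps against raised pressure. It was measured on 4 of the 46 arrays of the series. The banded group (2 arrays, numbered 1 and 2) held left-ventricular RNA of male Wistar rats 16 weeks after a titanium clip was set around the ascending aorta. The sham group (2 arrays, numbered 3 and 4) held left-ventricular RNA of male Wistar rats that had the same operation without the clip, taken after the same time. No genetic change or drug treatment is named for either group. Rats of each group were split at random into pools and each array held the RNA of 1 pool, so that the 2 arrays of a group were separate pools of rats. The p-values therefore reflect how pools varied, not how single rats did. The arrays were chosen by their titles alone, and all 8740 probe sets were described. Banding was also sampled at 6, 12 and 30 weeks, each time with its own sham arrays (2 banded and 2 sham arrays at 6 and at 12 weeks, 4 banded and 2 sham arrays at 30 weeks).

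A left ventricle under lasting pressure load thickens, and its heart muscle cells grow without dividing. The growing muscle cells are known to switch on genes of the fetal heart, among them those of the natriuretic peptides, hormones that make the kidney excrete salt and relax vessels, and of skeletal alpha-actin. The adult heart draws most of its energy from the oxidation of fatty acids in mitochondria, and lower levels of the enzymes of this pathway are a known feature of the loaded heart, as is a growing matrix laid down by fibroblasts.

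Values are deposited intensities of probe sets on a linear scale. An effect is the log2 difference, banded minus sham, and is given ± its standard error (SE). A probe set was called higher or lower when its p from limma, adjusted by Benjamini and Hochberg over all 8740 probe sets, was below 0.05. The fit took the spread of each probe set from all 46 arrays in 20 groups. With 2 arrays against 2, an exact permutation test of a single gene cannot give a two-sided p below 0.333. Where probe sets shared a symbol the brightest over the 46 arrays stood for the gene, which left 4736 genes. Compared with the sham arrays, 19 probe sets were higher (0.217%) and 43 lower (0.492%). In genes these were 8 higher (0.169%) and 27 lower (0.57%). The 62 called probe sets carried 44 distinct symbols, and 9 had no single symbol. In all 62 the banded values did not overlap the sham values. Over all genes, both banded values lay above both sham values in 26.1% and below them in 24.7%. The effects of the higher probe sets ran from 0.52 to 2.95 (median 1.70) and those of the lower ones from -0.45 to -1.39 (median -0.78). At least a 2-fold change was reached by 13 of the 19 and by 6 of the 43.

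A smaller share of the lower calls than of the higher ones was kept when an array was left out. Leaving out an array also raises the SE, and the lower effects were smaller, so a lost call need not rest on that array. Slc4a3, for example, lost its call each time while its effect stayed between -0.55 and -0.57. Most lower effects, however, were smaller in size without sham replicate 4. That of Acadvl went from -0.91 to -0.63, that of Slc25a11 from -0.66 to -0.48 and that of Aqp7 from -1.12 to -0.88. A few were larger, as for Cluh (-0.70 to -0.73). What part of the lost calls came from the SE and what part from the array was not tested. Without banded replicate 1, 9 of the 19 higher and 6 of the 43 lower calls were kept, and without banded replicate 2, 8 and 6 were kept. Without sham replicate 3 these counts were 14 and 15, and without sham replicate 4 they were 8 and 1. The calls kept whichever of the 4 arrays was left out were 8 higher probe sets (4 of Nppa and 1 each of Nppb, Acta1, Csrp2 and Akip1) and 1 lower probe set (Acaa2). With the spread taken from the 18 banding and sham arrays only, 10 probe sets were called higher and 1 lower. The lower one was not Acaa2 but a probe set with no single symbol, at -1.39 (limma adjusted p = 0.041 in that fit). The direction was the same in all 62 under each of these settings, which was fixed in advance. Where groups do not overlap, leaving out 1 array cannot turn the sign. A fit that changes only the spread leaves the effect as it is. The 2 banded arrays differed from each other with a standard deviation (SD) of 0.24 log2 over probe sets and the 2 sham arrays with an SD of 0.22, against a range of 0.19 to 0.45 over the 35 replicate pairs of the series. Sham replicate 4 lay farther from the banded arrays (SD 0.32 and 0.37) than sham replicate 3 did (0.26 and 0.30).

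**Figure D1:**
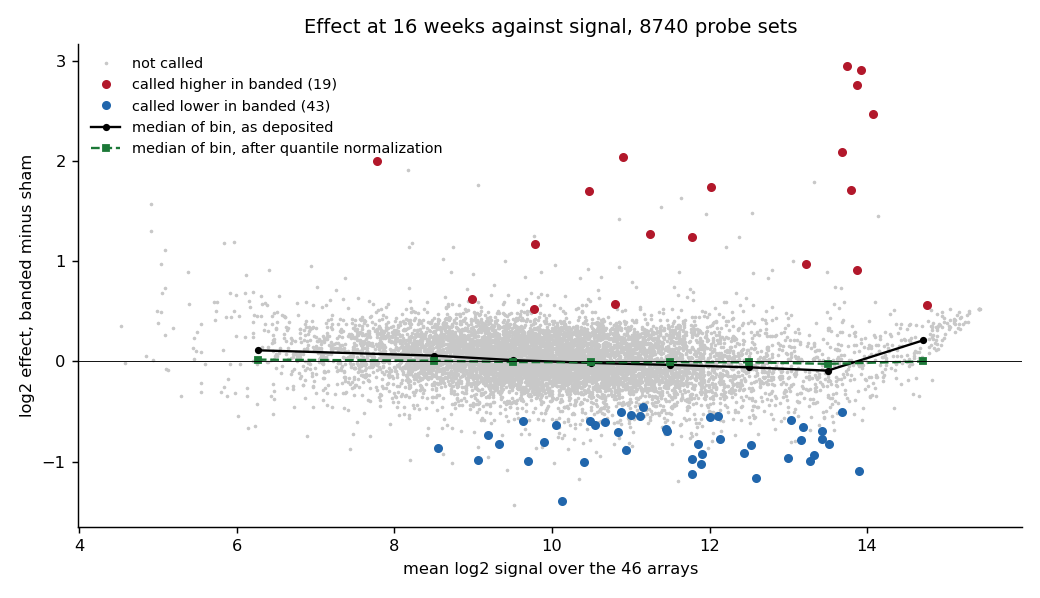
Effect at 16 weeks (log2, banded minus sham) of each of the 8740 probe sets against its mean log2 signal over the 46 arrays; red points were called higher (19), blue points lower (43), and the lines join the median effects of bins of signal as deposited and after quantile normalization. The calls spread over most of the signal range, and the median of the 177 brightest probe sets stood at 0.21 as deposited and at -0.0011 after quantile normalization.

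Both cardiac natriuretic peptide genes rose at 16 weeks. Nppa, the gene of atrial natriuretic peptide, had signals of 41385 and 43848 in banded ventricles, against 8163 and 7226 in sham ventricles. Each banded value was thus far above each sham value, and the pools of a group lay close together. The effect was 2.47 ± 0.259, or 5.55-fold (limma adjusted p = 6.24e-07). The other 3 probe sets of Nppa, at effects of 2.76, 2.91 and 2.95, were called as well. Nppb, the gene of brain natriuretic peptide, had 26620 and 23985 in banded ventricles, against 8042 and 7405 in sham ventricles. Its effect was 1.71 ± 0.261, or 3.27-fold (adjusted p = 0.000306). Among the 8 measured genes of natriuretic peptides, their receptors and their processing, these 2 rose, none fell and 6 did not pass the test. The clearance receptor Npr3, which takes the peptides up for breakdown, stood at 0.57 ± 0.166 (adjusted p = 0.128), with 766 and 969 in banded ventricles and 610 and 551 in sham ventricles. The guanylyl cyclase receptor Npr1, through which both peptides signal, stood at -0.35 ± 0.0959 (adjusted p = 0.0874), with 3214 and 2801 in banded ventricles against 3761 and 3911 in sham ventricles. The groups of both receptors did not overlap. The processing genes Furin and Pam stood at 0.14 and 0.23. The list median of 0.20 compares with 0.0039 over all 4736 genes.

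Nppa and Nppb are neighbours on rat chromosome 5, with starts 12176 bases apart and both on the plus strand. The 250 bases before the starts of these genes and of Acta1, described next, are printed, and these genes were picked by name. Their higher calls were kept whichever array was left out. So were those of Csrp2 and of 1 Akip1 probe set, whose windows are not printed. The printed bases come from RefSeq (build GRCr8), read 5′ to 3′ along each gene's strand, and capitals mark 4 motifs searched on both strands. The motifs were the core of a GATA site (GATAA), the M-CAT element (CATTCC), the TATA box (TATAAA) and the CArG box, by its name.
Nppa, chr5:163711934-163712183, plus strand: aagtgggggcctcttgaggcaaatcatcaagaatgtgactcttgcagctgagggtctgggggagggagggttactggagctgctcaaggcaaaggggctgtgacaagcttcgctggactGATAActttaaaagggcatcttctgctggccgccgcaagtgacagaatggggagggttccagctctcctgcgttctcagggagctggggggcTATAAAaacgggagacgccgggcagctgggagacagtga
Nppb, chr5:163699758-163700007, plus strand: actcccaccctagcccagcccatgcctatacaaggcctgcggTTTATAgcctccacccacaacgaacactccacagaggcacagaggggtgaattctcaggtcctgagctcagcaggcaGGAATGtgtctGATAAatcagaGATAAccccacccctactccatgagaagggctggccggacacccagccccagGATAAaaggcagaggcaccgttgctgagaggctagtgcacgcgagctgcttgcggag
Acta1, chr19:68784195-68784444, minus strand: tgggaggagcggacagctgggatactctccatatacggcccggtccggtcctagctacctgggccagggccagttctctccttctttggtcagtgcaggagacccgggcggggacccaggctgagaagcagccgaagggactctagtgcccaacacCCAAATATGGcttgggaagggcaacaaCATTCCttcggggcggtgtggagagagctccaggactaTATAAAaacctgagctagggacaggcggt
The window of Nppa held a GATA motif at 131 bases and a TATA box at 39 bases before the start. That of Nppb held GATA motifs at 120, 109 and 57 bases, and an M-CAT element and a TATA box read on the opposite strand at 131 and 208 bases. That of Acta1 held a CArG box at 94 bases, an M-CAT element at 67 bases and a TATA box at 29 bases. No marked motif overlapped another. Over all 33469 promoter windows of this length, a GATA motif stood in 23.5%, an M-CAT element in 12.1%, a TATA box in 12.9% and a CArG box in 1.5%. Of the 12 symbols called higher, 10 matched a window, and 2 of these held a GATA motif, 3 an M-CAT element, 3 a TATA box and 1 a CArG box. Of the 32 symbols called lower, 24 matched, of which 3 held a GATA motif, 1 an M-CAT element, 1 a TATA box and 0 a CArG box. These matches describe letters and not sites in use.

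Among genes of the contracting filaments, Acta1 and Ankrd1 rose and most others did not pass the test. Acta1, the skeletal alpha-actin of the sarcomere's thin filament, had 27776 and 23836 in banded ventricles, against 5231 and 7016 in sham ventricles. The groups were far apart and the effect was 2.09 ± 0.238, or 4.25-fold (limma adjusted p = 1.39e-06). Ankrd1, a muscle stress protein bound to titin that enters the nucleus, had 38949 and 39635 in banded ventricles, against 25439 and 27679 in sham ventricles. Its effect was 0.57 ± 0.134 (adjusted p = 0.0418), and the call was lost after quantile normalization, at 0.26 (adjusted p = 0.299), and without any 1 of the 4 arrays (adjusted p 0.157 without banded replicate 1, 0.271 without banded replicate 2, 0.163 without sham replicate 3 and 0.331 without sham replicate 4). Csrp2, a LIM domain protein of smooth muscle known from vessels, had 2544 and 2287 in banded ventricles and 745 and 743 in sham ventricles. Its effect was 1.70 ± 0.29, or 3.24-fold (adjusted p = 0.0018), and it was the only 1 of 27 genes of the non-muscle and smooth muscle cytoskeleton to pass (list median 0.011).

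**Figure D2:**
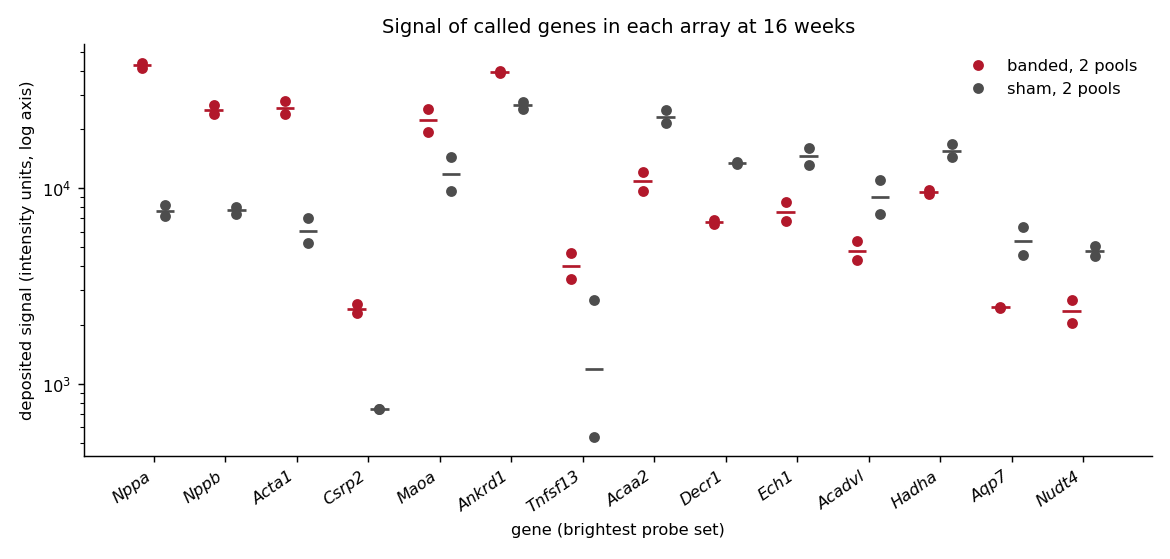
Deposited signal (intensity units, log axis) of 14 called genes in each array at 16 weeks; red points are the 2 banded pools and grey points the 2 sham pools, with bars at the mean of the log2 values. The groups of each gene are apart, widely for Nppa (41385 and 43848 in banded, 8163 and 7226 in sham ventricles), while the sham pools of Tnfsf13 lie far from each other (2667 and 532).

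Of the 20 measured genes of the sarcomere and of fetal muscle isoforms, Acta1 and Ankrd1 rose, none fell and 18 did not pass, with a list median of 0.46. Myh7, the slow myosin heavy chain that is the fetal form in rodents, had 44000 and 48631 in banded ventricles, against 30469 and 35468 in sham ventricles. Its effect was 0.49 ± 0.206 (adjusted p = 0.319). Myh6, the fast adult myosin heavy chain, lay almost as far up at 0.43 ± 0.294 (adjusted p = 0.568), with 40158 and 46918 in banded and 29852 and 34680 in sham ventricles. Cardiac actin, Actc1, stood at 0.53 ± 0.246 (adjusted p = 0.369). These shifts went along with one at the top of the signal range. The 177 probe sets with a mean log2 signal of 14 or more had a median effect of 0.21, with 140 above 0. After quantile normalization of the arrays their median was -0.0011, and Myh7 stood at 0.081, Myh6 at 0.017 and Actc1 at -0.00018. The list median was then 0.021. The effect of Nppa stayed between 2.25 and 2.77 and that of Acta1 between 1.83 and 2.30 over 16 alternative settings, this one among them. The genes Myl7 and Myl4, the atrial myosin light chains that the fetal ventricle also makes, stood at 0.89 ± 0.338 (adjusted p = 0.273) and 0.56 ± 0.27 (0.374), and Myl7 had 7831 and 10841 in banded ventricles, against 5453 and 4562 in sham ventricles. Dimmer probe sets of Myl7 and Myl4 stood at 1.54 ± 0.461 (adjusted p = 0.138) and 0.89 ± 0.487 (0.449).

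Maoa and Plscr3 were called higher with effects below 1 on the log2 scale. Maoa, the mitochondrial monoamine oxidase that breaks down noradrenaline and serotonin, had 25530 and 19463 in banded ventricles, against 14515 and 9732 in sham ventricles. The pools of each group differed widely without overlapping the other group. The effect was 0.91 ± 0.219 (limma adjusted p = 0.0449), and a second probe set gave 0.97 (adjusted p = 0.0388). The effect of Maoa was 0.62 (adjusted p = 1) without sham replicate 4, without banded replicate 1 it was 0.71 (adjusted p = 0.274) and without banded replicate 2 it was 1.10 (adjusted p = 0.0683). Of 30 genes of adrenergic signalling and monoamine breakdown it was the 1 that passed. Plscr3, a phospholipid scramblase of mitochondria, had 2238 and 2494 in banded and 1674 and 1501 in sham ventricles. Its effect was 0.58 ± 0.14 (adjusted p = 0.0452), with an adjusted p of 0.0737 to 0.892 when any 1 array was left out, the highest without sham replicate 4.

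Akip1, whose product binds the catalytic subunit of protein kinase A, was uneven between its probe sets. The pair of probe sets called higher had 4692 and 4208, and 533 and 481, in banded ventricles, against 1107 and 1049, and 144 and 112, in sham ventricles. Their effects were 2.04 ± 0.278 (adjusted p = 4.16e-05) and 2.00 ± 0.393 (adjusted p = 0.0116). The call of the dimmer one was lost without sham replicate 4 (adjusted p = 0.344) and without banded replicates 1 (0.102) and 2 (0.0608). The brightest probe set of the gene stood at 0.22 ± 0.159 (adjusted p = 0.597) and a further one at 0.072. The cause of this difference between probe sets was not tested. Bgn, the matrix proteoglycan biglycan, had 1 called probe set at 1.24 ± 0.306 (5019 and 4695 in banded against 2086 and 2024 in sham ventricles, adjusted p = 0.0473), while its brightest one stood at 0.47 ± 0.204 (adjusted p = 0.336). The call of Bgn was lost without any 1 array (adjusted p 0.127 to 0.644, the highest without sham replicate 4).

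The higher call of Tnfsf13 rested on 1 sham array. This gene of the TNF ligand APRIL, known for its action on B cells, had 3425 and 4636 in banded ventricles, against 2667 and 532 in sham ventricles. The sham pools differed from each other by more than the nearer of them differed from the banded pools. The effect was 1.74 ± 0.354 (limma adjusted p = 0.0151). It was 0.58 (adjusted p = 1) without sham replicate 4, without banded replicate 2 it was 1.52 (adjusted p = 0.217) and with all 8 banding sham arrays as controls it was 0.61 (adjusted p = 0.282). The other 2 probe sets of the gene stood at 0.28 and 0.09. A pair of called probe sets with no single symbol had the same pattern. The first had 2846 and 3401 in banded and 2587 and 641 in sham ventricles, and the second 929 and 1117 in banded and 897 and 227 in sham ventricles. Without sham replicate 4 their effects were 0.27 and 0.18 (adjusted p = 1 for both), against 1.27 and 1.17 with it.

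The lower genes were led by the mitochondrial oxidation of fatty acids. Of 27 measured genes of this pathway, 6 fell, none rose and 21 did not pass the test, against 0.57% of all genes called lower. In all, 24 of the 27 effects were below 0 and in 20 both banded values lay below both sham values, against 24.7% of all genes. The list median was -0.42. It was -0.29 after quantile normalization and between -0.35 and -0.48 when any 1 array was left out. Acaa2, the thiolase that makes the last cut in each turn of the cycle, had 9723 and 12081 in banded ventricles, against 21459 and 24991 in sham ventricles. The groups were well apart, with an effect of -1.10 ± 0.17, or 46.8% of the sham level (limma adjusted p = 0.000382), and the call held without any 1 array (adjusted p at most 0.0443). With the spread of the 18 banding and sham arrays only, its adjusted p was 0.0685.

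Decr1, the dienoyl-CoA reductase that prepares unsaturated fatty acids, had 6587 and 6880 in banded ventricles, against 13657 and 13271 in sham ventricles, so that banded pools held 50% of the sham level. Its effect was -1.0 ± 0.218 (limma adjusted p = 0.0256). A second probe set stood at -1.20 ± 0.362 and was not called (adjusted p = 0.144). Ech1, a dienoyl-CoA isomerase of the same branch, had 6759 and 8523 in banded and 13114 and 16138 in sham ventricles, an effect of -0.94 ± 0.191 (adjusted p = 0.0151). Acadvl, the very-long-chain acyl-CoA dehydrogenase of the first step, had 4289 and 5353 in banded and 7394 and 10993 in sham ventricles, an effect of -0.91 ± 0.202 (adjusted p = 0.0288). No banded value of these 3 genes reached a sham value, although the sham pools of Acadvl were far from each other. Hadha, the alpha subunit of the trifunctional protein that carries out the later steps on long chains, had 9356 and 9844 in banded and 14389 and 16825 in sham ventricles. Its effect was -0.70 ± 0.135 (adjusted p = 0.0105), and a second probe set gave -0.77 (adjusted p = 0.0452). Its partner subunit Hadhb stood at -0.55 ± 0.23 (adjusted p = 0.315), with 8300 and 9769 in banded against 13169 and 13281 in sham ventricles. Eci1, the isomerase that shifts double bonds, had 7214 and 8916 in banded and 11129 and 12949 in sham ventricles, an effect of -0.58 ± 0.145 (adjusted p = 0.0484), and the call was lost after quantile normalization, at -0.49 (adjusted p = 0.114). A second probe set of Eci1 was called at -0.96 and stood at -0.57 (adjusted p = 0.297) without banded replicate 1, the lower of its banded pools. Without sham replicate 4 the adjusted p was 0.331 for Decr1, 0.549 for Ech1, 0.471 for Hadha and 1 for both Acadvl and Eci1. Without banded replicate 1 it lay between 0.102 (Hadha) and 0.301 (Eci1), and without banded replicate 2 between 0.019 (Ech1) and 0.123 (Decr1). Without sham replicate 3 the calls of Decr1 (0.0957) and Eci1 (0.0628) were lost.

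**Figure D3:**
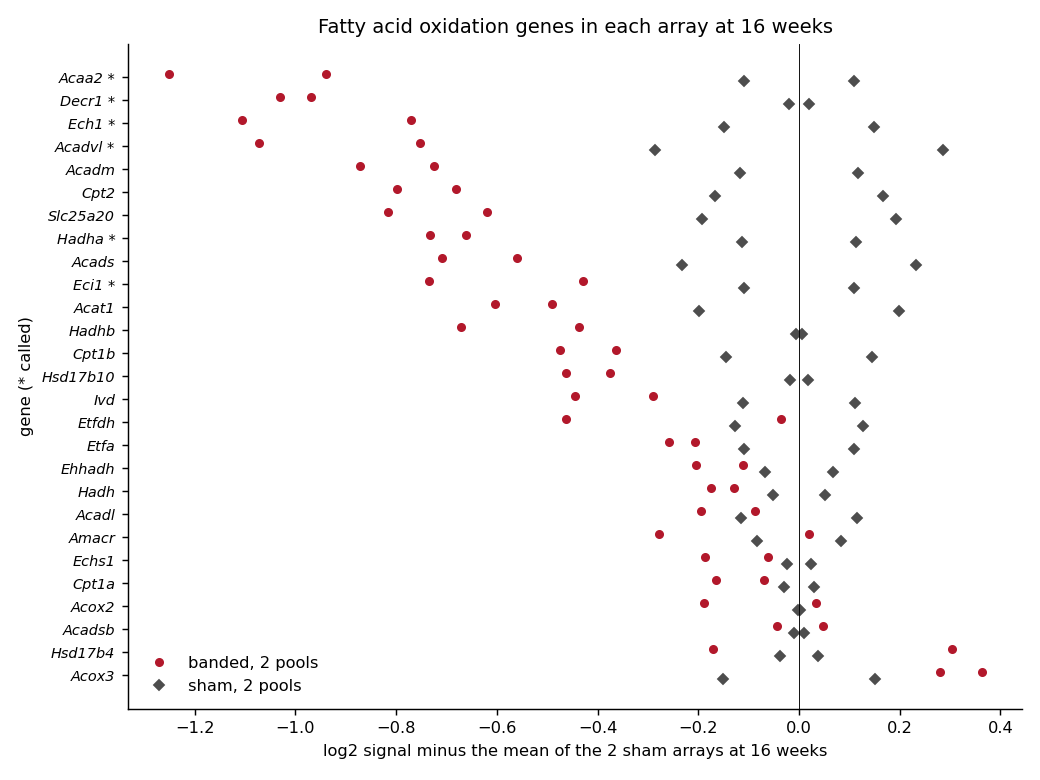
Log2 signal of the 27 measured genes of fatty acid oxidation in each array at 16 weeks, less the mean of the 2 sham arrays; red circles are banded pools, grey diamonds sham pools, and an asterisk marks a called gene. In 20 genes both banded pools lie left of both sham pools, and Acox3 alone has both to the right.

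Several members of the pathway lay low without passing, and they are named here after their values were seen. Acadm, the medium-chain acyl-CoA dehydrogenase, had 6537 and 7240 in banded ventricles, against 11027 and 12968 in sham ventricles, at -0.80 ± 0.215 (limma adjusted p = 0.085). Cpt2 and Slc25a20, of the carnitine route by which fatty acids enter mitochondria, stood at -0.74 ± 0.198 (adjusted p = 0.0836) and -0.72 ± 0.198 (0.103). The entry enzyme of heart muscle, Cpt1b, stood at -0.42 ± 0.15 (adjusted p = 0.241). Members near 0 included Acadl, the long-chain dehydrogenase, at -0.14 and Echs1 at -0.12. Acox3, an oxidase of peroxisomes, stood at 0.32.

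The uptake and handling of fats had 2 of 25 genes lower and none higher (list median -0.20). Aqp7, the channel that lets glycerol into the muscle cell, had 2461 and 2449 in banded ventricles, against 4532 and 6303 in sham ventricles. Its effect of -1.12 ± 0.232, or 45.9% of the sham level, was the lowest among the 27 genes called lower (limma adjusted p = 0.0163). Dgat1, which makes triglyceride, had 2126 and 1863 in banded and 2627 and 3234 in sham ventricles, an effect of -0.55 ± 0.134 (adjusted p = 0.0452). The adjusted p of Aqp7 was 0.651 and that of Dgat1 was 1 without sham replicate 4. Without banded replicates 1 and 2 in turn, Aqp7 was at 0.102 and 0.107 and Dgat1 at 0.102 and 0.585. The fatty acid transporter Cd36 stood at -0.44 ± 0.25 (adjusted p = 0.478), while the fatty acid binding protein Fabp3 stood at 0.22.

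In glucose use, 1 of 27 genes fell and none rose (list median -0.082). Pfkm, the muscle phosphofructokinase that commits sugar to glycolysis, had 8601 and 9328 in banded ventricles, against 13947 and 17030 in sham ventricles, an effect of -0.78 ± 0.156 (limma adjusted p = 0.0129). The insulin-responsive transporter Slc2a4 stood at -0.75 ± 0.276 (adjusted p = 0.263) and the muscle enolase Eno3 at -0.83 ± 0.318 (0.279). The groups of both did not overlap. In the citrate cycle and pyruvate oxidation, 1 of 22 genes fell and none rose (list median -0.14). This was Slc25a11, the carrier that exchanges 2-oxoglutarate for malate across the inner mitochondrial membrane, with 8329 and 7907 in banded ventricles, against 11328 and 14497 in sham ventricles. Its effect was -0.66 ± 0.13 (adjusted p = 0.0116), while its second probe set stood at -0.012. Of 40 genes of oxidative phosphorylation none was called, 24 were below 0 and the median was -0.05, against 0.0039 over all genes. After quantile normalization the list median was -0.12, with 28 below 0, and without sham replicate 3 it was -0.092. With all 8 banding sham arrays as controls it was 0.0081. The lowest members of this list were the complex I subunits Ndufs7 at -0.69 ± 0.292 (adjusted p = 0.326) and Ndufa9 at -0.60 ± 0.159 (0.0781). A called probe set of the complex I subunit Ndufa3 lay at -0.51 (adjusted p = 0.0452), and its call was lost after quantile normalization, at -0.44 (adjusted p = 0.0956). Without sham replicate 4 the adjusted p was 0.549 for Pfkm, 0.651 for Slc25a11 and 0.644 for Ndufa3. Without banded replicates 1 and 2 in turn it was 0.115 and 0.0505 for Pfkm, 0.0505 and 0.109 for Slc25a11, and 0.0348 and 0.80 for Ndufa3, whose call was also lost without sham replicate 3 (0.118).

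Enzymes of amino acid breakdown were also among the lower genes. Aldh6a1, the mitochondrial dehydrogenase of valine breakdown, had 3075 and 2955 in banded and 5190 and 5529 in sham ventricles, an effect of -0.83 ± 0.196 (limma adjusted p = 0.0418). Hpd, which acts in the breakdown of tyrosine, had 498 and 527 in banded and 794 and 912 in sham ventricles, an effect of -0.73 ± 0.171 (adjusted p = 0.0397). A further called probe set of Hpd gave -0.87, and 1 that was not called gave -0.019. Bcat2, the mitochondrial aminotransferase of branched-chain amino acids, had 2132 and 2090 in banded and 2666 and 3124 in sham ventricles, an effect of -0.45 ± 0.107 (adjusted p = 0.0428). All 3 had banded pools close to each other and below both sham pools. No list of this pathway had been made, and these 3 are grouped here after the calls were seen. Their adjusted p was 0.644, 0.824 and 1 without sham replicate 4, in the order in which they are named, without banded replicate 1 it was 0.15, 0.20 and 0.157, and without banded replicate 2 it was 0.289, 0.183 and 0.291. The calls of Aldh6a1 (0.0959) and Hpd (0.0611) were also lost without sham replicate 3.

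The other genes called lower were of mixed function. Nudt4, which cleaves the pyrophosphates of inositol phosphates, had 2669 and 2054 in banded ventricles, against 4479 and 5040 in sham ventricles, an effect of -1.02 ± 0.186 (limma adjusted p = 0.00471). Impa2, an inositol monophosphatase, had 902 and 927 in banded and 1770 and 1902 in sham ventricles, an effect of -1.0 ± 0.246 (adjusted p = 0.0456). Dhrs7c, a short-chain dehydrogenase of the muscle's sarcoplasmic reticulum, had 2862 and 3253 in banded and 5425 and 6185 in sham ventricles, an effect of -0.92 ± 0.208 (adjusted p = 0.0315). In each of these both banded pools lay well below both sham pools. Rab3b, a GTPase of secretory vesicles, stood at -0.84 ± 0.201 (3806 and 4039 in banded, 6621 and 7430 in sham ventricles), Iqgap2, a scaffold of the actin cytoskeleton, at -0.83 ± 0.176 (491 and 407 in banded, 741 and 851 in sham ventricles) and Slc4a3, the chloride and bicarbonate exchanger of heart muscle, at -0.56 ± 0.127 (3683 and 3681 in banded, 5389 and 5466 in sham ventricles). Their adjusted p was 0.0428, 0.0214 and 0.0337. All 6 calls were lost without sham replicate 4, with an adjusted p of 0.203 for Nudt4, 0.471 for Slc4a3, 0.549 for Iqgap2, 0.644 for Dhrs7c, 0.722 for Impa2 and 0.782 for Rab3b. Without banded replicate 2 they lay between 0.0934 (Dhrs7c) and 0.306 (Iqgap2), without banded replicate 1 the calls of Nudt4 (0.00559) and Iqgap2 (0.0357) were kept, and without sham replicate 3 the same 2 were (0.0125 and 0.0334).

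In some calls of lower genes it was the banded pools that were apart, as for Pax8 and Zfp687. Pax8, a transcription factor of thyroid and kidney, had 1263 and 3220 in banded ventricles, against 3984 and 3954 in sham ventricles (-0.98 ± 0.226, limma adjusted p = 0.0387). Zfp687, a zinc finger protein, had 530 and 178 in banded and 541 and 682 in sham ventricles (-0.99 ± 0.236, adjusted p = 0.0428). Banded replicate 1 was the low pool for Pax8, and its effect without that array was -0.30 (adjusted p = 0.461). Banded replicate 2 was the low pool for Zfp687, whose effect without it was -0.20 (adjusted p = 1). The adjusted p without sham replicate 4 was 0.471 for Pax8 and 0.911 for Zfp687, and without sham replicate 3 it was 0.112 and 0.0578.

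In calcium handling none of 32 genes passed the test and the list median was -0.044. Ryr2, the release channel of the sarcoplasmic reticulum, had 560 and 392 in banded ventricles, against 824 and 1192 in sham ventricles, at -1.08 ± 0.35 (limma adjusted p = 0.191). Pln, the inhibitor of the calcium pump, stood at -0.32 ± 0.227 (adjusted p = 0.591). The probe sets of Atp2a2, the calcium pump itself, went opposite ways. The brightest had 45015 and 50378 in banded and 32543 and 36585 in sham ventricles, at 0.46 ± 0.212 (adjusted p = 0.355), and stood at 0.029 after quantile normalization. A second had 3667 and 4443 in banded and 5564 and 6251 in sham ventricles and was called lower at -0.55 ± 0.134 (adjusted p = 0.0459), although not without sham replicate 4 (adjusted p = 0.935) or any other 1 of the 4 arrays (0.0608 to 0.293). The remaining 2 stood at -0.41 and -0.33, so that no direction can be given for this gene.

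Matrix genes lay mostly above 0 and none of them passed the test by its brightest probe set. Of 26 collagens, matrix glycoproteins and cross-linking enzymes, 20 effects were above 0 (median 0.28), and in 16 both banded values lay above both sham values, against 26.1% of all genes. Of 10 matricellular proteins, which act on cells from within the matrix, 9 were above 0 (median 0.52) and 6 did not overlap. Postn, periostin of activated fibroblasts, had 555 and 293 in banded ventricles, against 114 and 101 in sham ventricles. Both banded values were above both sham values but lay far apart, and the effect was 1.91 ± 0.556 (limma adjusted p = 0.128). Spp1, osteopontin, had 437 and 319 in banded and 237 and 121 in sham ventricles, at 1.14 ± 0.654 (adjusted p = 0.478). Fn1, fibronectin, had 1926 and 1449 in banded and 921 and 848 in sham ventricles, at 0.92 ± 0.317 (adjusted p = 0.226). The 4 dimmer probe sets of Fn1 lay between -0.18 and 0.29. Loxl1, an enzyme that cross-links elastin, stood at 0.89 ± 0.376 (adjusted p = 0.325), with 3753 and 2635 in banded and 1664 and 1739 in sham ventricles. The collagen genes Col3a1 and Col1a1 stood at 0.54 ± 0.24 (adjusted p = 0.346) and 0.40 ± 0.289 (0.592). The dimmer probe sets of Col1a1 stood at 0.0059, 0.048 and 0.27, and that of Col3a1 at 0.35. The protease inhibitor Timp1 stood at 0.44 ± 0.24 (adjusted p = 0.448), with 3990 and 3312 in banded and 2666 and 2677 in sham ventricles.

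**Figure D4:**
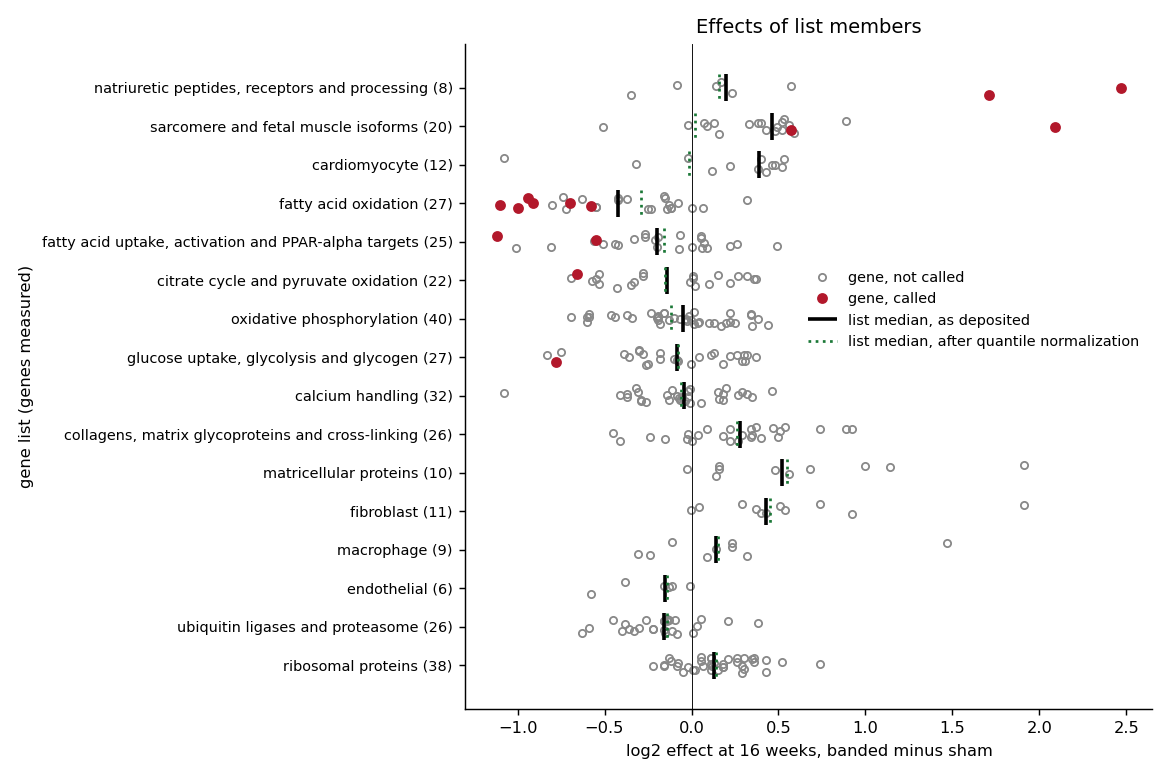
Log2 effect at 16 weeks (banded minus sham) of each measured gene of 16 gene lists, red where called; black bars are list medians as deposited and dotted green bars those after quantile normalization, with the number of genes beside each list. Fatty acid oxidation lies lowest (median -0.42) and the matricellular list highest (0.52) of those plotted, and the medians of the sarcomere (0.46) and cardiomyocyte (0.39) lists stand at 0.021 and -0.017 after quantile normalization.

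The samples are labelled as left ventricle, and markers of heart muscle cells were at high levels in all 4 arrays, with summed signals of the 12 measured genes of 415833 and 457924 in banded ventricles and 318548 and 364006 in sham ventricles. Their median effect was 0.39 as deposited and -0.017 after quantile normalization, so that its direction depends on the scaling. Fibroblast markers lay above 0 as the matrix genes did, with 10 of 11 above 0, a median of 0.43 and summed signals of 74741 and 71897 in banded against 55601 and 51591 in sham ventricles. The list shares Postn, Fn1 and several collagens with the matrix lists. In ventricle RNA more cells of a type and more RNA per cell cannot be told apart. All 6 endothelial markers lay below 0 (median -0.15), with summed signals of 9509 and 9262 in banded and 10396 and 11866 in sham ventricles, and none passed the test. Pecam1, an adhesion molecule of endothelium, had 1684 and 1523 in banded and 2197 and 2612 in sham ventricles, at -0.58 ± 0.202 (limma adjusted p = 0.231), and the VEGF receptor Flt1 stood at -0.38 ± 0.138 (0.249). After quantile normalization 5 of the 6 lay below 0.

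Markers of other cell types were uneven. Lyz2, the lysozyme of macrophages, had 6173 and 4278 in banded ventricles, against 2249 and 1536 in sham ventricles, at 1.47 ± 0.495 (limma adjusted p = 0.212). The 9 macrophage markers had a median of 0.14, with 6 above 0 and summed signals of 25020 and 23685 in banded and 22181 and 20285 in sham ventricles. Without banded replicate 1 their median was -0.018, with 4 above 0 and 5 below. The 3 measured atrial markers had a median of 0.56, with 2 above 0 and 1 below at -0.063. They summed to 10194 and 13767 in banded against 7628 and 6691 in sham ventricles. Nppa is itself an atrial gene in the adult heart, and the part of atrial tissue in its level was not tested. The medians of smooth muscle (0.073), lymphocyte (0.084), nerve (0.11), erythroid (0.17), skeletal muscle (0.19) and adipocyte (-0.12) markers were small, that of smooth muscle at -0.023 without banded replicate 1, and none of the 11 marker lists held a called gene.

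Among the remaining lists no gene passed by its brightest probe set other than Slc4a3, and the medians were small. Slc4a3, the chloride and bicarbonate exchanger described above, was counted in the list of sodium handling. Ribosomal proteins stood at 0.13 with 29 of 38 above 0, and ubiquitin ligases and the proteasome at -0.16 with 21 of 26 below 0. Psmc5, an ATPase of the proteasome cap, had 2520 and 2540 in banded and 3428 and 4463 in sham ventricles, at -0.63 ± 0.2 (limma adjusted p = 0.181). Annexins and S100 proteins stood at 0.23, matrix proteases and inhibitors at 0.18 and circadian genes at -0.15. Among the last, the clock genes Per2 and Nr1d2 stood at -0.99 ± 0.467 (adjusted p = 0.371) and -0.90 ± 0.323 (0.241). Growth factors of the TGF-beta and IGF families (median 0.05 over 48 genes), immediate early genes (0.0077 over 23) and chemokines and cytokines (0.078 over 36) lay near 0. So did chaperones (-0.10), cardiac transcription factors (-0.078), the renin-angiotensin and endothelin genes (-0.078), sodium handling (-0.095), potassium channels (-0.053), creatine kinases (-0.02), antioxidant enzymes (-0.015), the cell cycle (0.039), integrins and tetraspanins (0.064) and complement and coagulation inhibitors (0.067). Of these medians near 0, those of the immediate early genes, chaperones, renin-angiotensin and endothelin genes, potassium channels, creatine kinases, cell cycle and complement changed sign under at least 1 alternative setting. Txn2, the mitochondrial thioredoxin, stood lowest among 33 antioxidant genes at -0.72 ± 0.188 (adjusted p = 0.0682), with 4635 and 4829 in banded and 7238 and 8408 in sham ventricles.

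Most called probe sets had effects of the same sign at the other banding times, and no probe set differed from those times by the test of the difference. Pearson's r of the effects over the 8740 probe sets was 0.537 with 6 weeks, 0.308 with 12 weeks and 0.163 with 30 weeks, as a description only, since probe sets of a gene and of a signal range share their errors. The 19 probe sets called higher had effects of the same sign in 17, 17 and 16 at 6, 12 and 30 weeks, where 73.2%, 59.6% and 46.1% of all probe sets above 0 at 16 weeks had. The 43 called lower had it in 43, 40 and 38, where the shares of all probe sets below 0 were 63.7%, 49.5% and 46.5%. Of the higher ones 9 were called at each of the other times and 5 at none, and of the lower ones 1 and 27. At 6, 12 and 30 weeks, 41, 22 and 83 probe sets were called higher and 16, 9 and 15 lower, so that the count of lower calls was highest at 16 weeks. The difference between these counts was not tested. In limma's test of the effect at 16 weeks less the mean of the other 3, 0 probe sets passed, with 522 at an unadjusted p below 0.05 and a lowest adjusted p of 0.504. Set against 6, 12 and 30 weeks in turn, 0 passed as well, with 219, 583 and 950 at an unadjusted p below 0.05.

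**Figure D5:**
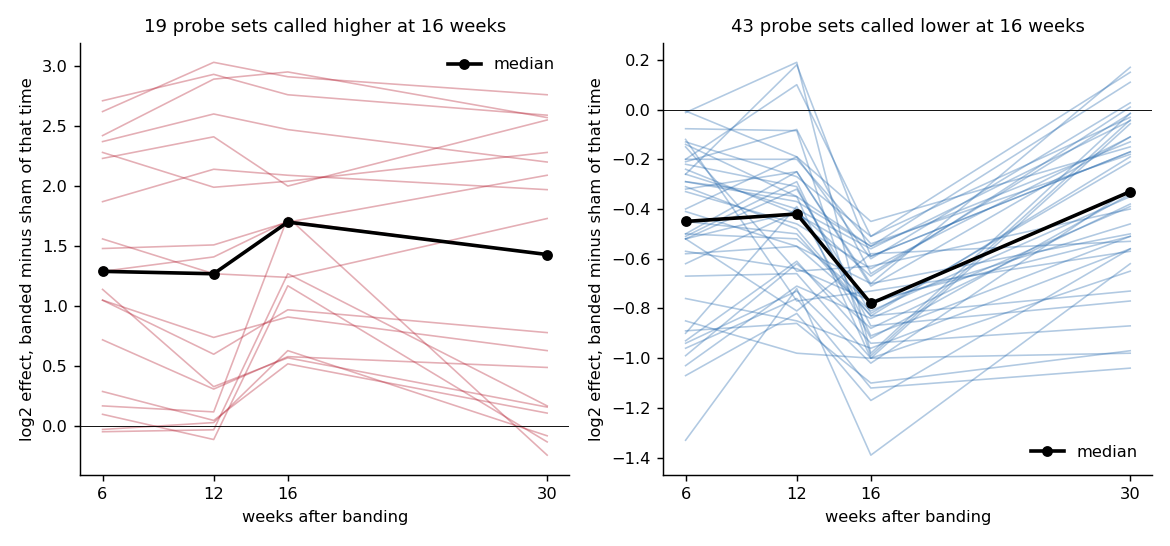
Log2 effect (banded minus the sham of the same time) at 6, 12, 16 and 30 weeks of the 19 probe sets called higher at 16 weeks and of the 43 called lower; each thin line is a probe set and the black line the median. Medians were 1.29, 1.27, 1.70 and 1.43 for the higher and -0.45, -0.42, -0.78 and -0.33 for the lower ones, and since the probe sets were chosen at 16 weeks their size there is no finding.

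Some leading genes had effects of similar size at the 4 times, while those of others, such as Ankrd1 and Nudt4, varied more. Nppa stood at 2.37, 2.60, 2.47 and 2.20 at 6, 12, 16 and 30 weeks, and Acta1 at 1.87, 2.14, 2.09 and 1.97. Acaa2 stood at -0.89, -0.86, -1.10 and -0.97 and Decr1 at -0.85, -0.98, -1.0 and -0.98. All 4 of these effects of Nppa, Acta1 and Acaa2 were called. Csrp2 stood at 1.48, 1.51, 1.70 and 2.09. Ankrd1, at 1.14, 0.33, 0.57 and 0.16, was called at 6 and 16 weeks. Nudt4 stood at -0.94, -0.73, -1.02 and -0.32. The list of fatty acid oxidation had medians of -0.27, -0.29, -0.42 and -0.21, with 3, 3, 6 and 5 of its 27 genes called lower and none higher at any of the 4 times.

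A few genes had an effect at 16 weeks with little at the other times, although none passed the test of the difference. Tnfsf13 stood at 0.17, 0.12, 1.74 and -0.24 at 6, 12, 16 and 30 weeks (difference from the mean of the others 1.73 ± 0.404, limma adjusted p = 0.609). Pax8 stood at -0.012, 0.19, -0.98 and -0.015 (-1.03 ± 0.258, adjusted p = 0.609), and Slc25a11 at -0.21, -0.08, -0.66 and -0.016 (-0.56 ± 0.148, adjusted p = 0.64). In each of these genes the groups did not overlap, but the banded pools of Pax8 and the sham pools of Tnfsf13 are the uneven ones described above. The sham pools of Slc25a11 differed as well (11328 and 14497), and its effect was -0.48 without sham replicate 4. Its second probe set stood at -0.012 at 16 weeks. Ryr2 stood at 0.31, -0.086, -1.08 and 0.31.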

How the data were processed

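Left-ventricular RNA pools were hybridised to Affymetrix rat genome arrays (series U34, array A), 1 pool an array. The deposited values are intensities on a linear scale: the authors normalized the arrays by the invariant-set method of Li and Wong and computed model-based expression values from perfect-match probes in dChip, whose version is not given in the sources used here. Banded and sham groups were taken from the sample labels. Values were raised to at least 16 (0.0303% of all values lay below) and put on the log2 scale. limma 3.58.1 (R 4.3.3) fitted 20 group means to all 46 arrays with an empirical Bayes spread, and p-values were adjusted over 8740 probe sets (called below 0.05). The study's own rank sum test over all models cannot be run on 2 arrays against 2. The fit was tested on simulated data with known changes. Symbols came from the GEO platform annotation: 7006 probe sets had 1 symbol, 308 several and 1426 none. The genes picked were up to 15 of the largest called in each direction, where only 8 were called higher. Also picked were up to 4 called genes of each of 41 lists (30 of pathways, 11 of cell type markers). Where a list had no called gene its 2 largest were picked, and a fixed set of known hypertrophy genes was added. Some picked genes that were not called are not described, among them Ccnd2, Ckb and Tsc22d1. Other genes are marked as named after their values were seen. The lists and genes were chosen with earlier results of these data known. Alternatives were 2 other floors (1 and 64), quantile and median scaling, a minimum signal of 100, other arrays or weights in the fit, a trended prior, 1 probe set a gene and leaving out each array. The number of arrays limits the precision.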

Additional observations from a re-analysis of the deposited data

Results flagged for a closer look

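The effect of Tnfsf13 was above 0 at 16 weeks (1.74) and below 0 at 30 weeks (-0.24 ± 0.306, limma adjusted p = 0.846), where it did not pass the test and was smaller than its SE. The difference from the mean of the other 3 times did not pass limma's test (adjusted p = 0.609), and the 16-week value rests on sham replicate 4, whose signal of 532 compares with 2667 in sham replicate 3.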

How the results depend on the processing

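No paired analysis was possible because the banded arrays are numbered 1 and 2 and the sham arrays 3 and 4, so that no number is shared. The counts of probe sets called at 16 weeks, 19 higher and 43 lower, were within 1.5 times these values with floors of 1 and 64, quantile or median scaling, a minimum signal of 100 and a trended prior. They were 10 and 1 with the spread of the 18 banding and sham arrays only, 83 and 127 with array weights, 230 and 285 with the 4 arrays at 16 weeks only, 57 and 60 with all 8 banding sham arrays as controls, and 9 and 27 with 1 probe set a gene, which tests fewer features. Leaving out each array in turn, which leaves a group with 1 array assumed to vary like the others, gave 11 to 36 higher and 1 to 19 lower, the fewest lower without sham replicate 4. For effects that were higher or lower at 16 weeks than at the mean of the other times, where 0 were called, leaving out an array gave 0 to 13 and 0 to 6. Against 6, 12 and 30 weeks in turn it gave 1 to 10, 0 to 13 and 1 to 14, and array weights gave 12 against 30 weeks. The 62 calls had the same direction under every alternative run on them, and quantile normalization kept 59 of them. With an array left out or only the spread changed, that direction was fixed in advance, since the groups of these calls did not overlap. The cause of the changes in the counts was not tested.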

Other observations

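Some called probe sets belong to genes outside the lists or to dimmer probe sets, and they are given here as values, named after these were seen. Genes of mitochondrial upkeep were among the lower ones. Clpb, a disaggregase of mitochondria, had 374 and 778 in banded and 990 and 1171 in sham ventricles (-1.0 ± 0.217, limma adjusted p = 0.0256). This was a dimmer probe set, and the brightest one of the gene did not pass the test. Without banded replicate 1, the lower of its banded pools, Clpb stood at -0.47 (adjusted p = 0.342). Cluh, which binds messenger RNAs of mitochondrial proteins, had 2078 and 2458 in banded and 3750 and 3595 in sham ventricles (-0.70 ± 0.168, adjusted p = 0.0428). Mrpl58, a release factor of the mitochondrial ribosome, had 976 and 972 in banded and 1393 and 1547 in sham ventricles (-0.59 ± 0.142, adjusted p = 0.0428). Ak4, a mitochondrial adenylate kinase, had 1753 and 1450 in banded and 2236 and 2398 in sham ventricles (-0.54 ± 0.123, adjusted p = 0.0351). Without sham replicate 4 the effects of these 4 lay between -0.49 (Ak4) and -0.88 (Clpb), and all 4 calls were lost. The calls of Cluh and Mrpl58 were lost whichever array was left out, and that of Ak4 was kept only without banded replicate 1.

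Outside mitochondria, the cytochrome P450 gene Cyp2e1 had 949 and 879 in banded and 1406 and 1425 in sham ventricles (-0.63 ± 0.144, limma adjusted p = 0.0342), and Epb41, of the membrane skeleton, had 754 and 838 in banded and 1260 and 1542 in sham ventricles (-0.81 ± 0.192, adjusted p = 0.0418). Higher were Gfra1, a receptor of the neurotrophic factor GDNF, with 722 and 679 in banded and 462 and 446 in sham ventricles (0.63 ± 0.139, adjusted p = 0.0288), and Scarb2, a lysosomal membrane protein, with 1033 and 1083 in banded and 802 and 675 in sham ventricles (0.52 ± 0.129, adjusted p = 0.0473). The called probe sets of Epb41, Gfra1 and Scarb2 were dimmer ones, and the brightest probe set of each of these genes did not pass the test. At 6, 12 and 30 weeks the called probe set of Gfra1 stood at -0.026, 0.031 and -0.079. Without sham replicate 4 the effects of these 4 were -0.62, -0.66, 0.60 and 0.40. The calls of Cyp2e1 and Gfra1 were lost whichever array was left out. Those of Epb41 and Scarb2 were kept only without sham replicate 3.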
